A study of Mus musculus with 3 samples.

Results

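The comparison set fibroblasts labelled as carrying conditional knockouts (cKO) of both Tgfbr2 and Smad4 against wild-type fibroblasts, both lines grown from normal mouse forestomach, the squamous-lined part of the rodent stomach. Each line was measured on 1 array, and the difference of a gene is its log2 signal in the Tgfbr2/Smad4 cKO array minus that in the wild-type array. The members were the genes named by probe sets with exactly 1 gene symbol, averaged per gene, whose highest value over the 3 arrays of the series reached the median of all values, a log2 signal of 6.63. Of 19938 named genes 11808 met this rule. The third array of the series held a Tgfbr2 cKO line from a forestomach squamous cell carcinoma, and its levels are printed here only beside those of the other arrays. The title of the series names BMP7 signaling in stromal cells deficient for the TGF-beta receptor, and the line without Smad4 as well as Tgfbr2 adds the loss of the SMAD protein that both pathways use. All lines were FSP1-positive fibroblasts cultured in serum-containing medium, harvested before confluence at low passage, and described as a mix of C57BL6 and BALBc mice of either sex. Each group is thus 1 cultured line, the labels assign no strain or sex to a line, and the Cre driver of the knockouts is not given in the sources used here. Because a group is 1 array, the spread between replicates is unknown, no difference was tested, and precision is limited by how few arrays there are. All levels and differences below are on the log2 scale, and 3 levels given together are in the order wild type, Tgfbr2 cKO, Tgfbr2/Smad4 cKO.

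TGF-beta binds the type II receptor encoded by Tgfbr2, which activates a type I receptor that phosphorylates SMAD2 and SMAD3, while BMPs act through other receptors and SMAD1, SMAD5 and SMAD9. Both sets of receptor SMADs enter the nucleus with SMAD4 and act on target genes there. In fibroblasts TGF-beta is known for matrix production, for the contractile myofibroblast state and, in many cell types, for arrest of the cell cycle through CDK inhibitors.

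Cell cycle genes made up 33.1% of the genes at least 2-fold lower, and the smooth muscle contractile list held 6 of the 257, among them Myh11 and Actg2, so promoter pieces of both groups are shown first. Many late cell cycle genes carry a cell cycle homology region (TTTGAA on either strand), read by the MuvB complex, near CCAAT boxes (CCAAT on either strand), read by NF-Y. Both motifs were searched in the 250 bases before the first listed start of each gene in RefSeq promoters of GRCm38.p6, which held 9468 of the 11808 genes. TTTGAA was in 10.1% of these promoters, CCAAT in 35.8% and both in 3.82%. Among the 72 promoters found for the 85 cell cycle genes at least 2-fold lower, 25 held TTTGAA (34.7%), 46 held CCAAT (63.9%) and 20 held both (27.8%). Shares were smaller in the 46 promoters of lower genes from the mitotic kinase, spindle and kinetochore lists. There 11 held TTTGAA (23.9%), 26 held CCAAT (56.5%) and 8 held both (17.4%). The matched letters can share bases, as they do in Kntc1, and a match describes the letters and is neither a shown site nor a cause. The following 8 genes were all at least 2-fold lower in the Tgfbr2/Smad4 cKO array, and capitals mark 1 TTTGAA and 1 CCAAT, or their reverse complements TTCAAA and ATTGG, on the gene's strand.
Kif11 at chr19:37376322-37376381, plus strand: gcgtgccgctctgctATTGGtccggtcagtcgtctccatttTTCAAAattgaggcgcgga
Depdc1a at chr3:159495379-159495432, plus strand: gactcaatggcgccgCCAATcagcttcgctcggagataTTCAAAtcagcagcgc
Mki67 at chr7:135716457-135716535, minus strand: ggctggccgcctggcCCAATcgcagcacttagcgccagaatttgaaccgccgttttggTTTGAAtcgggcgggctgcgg
Asf1b at chr8:83955640-83955693, plus strand: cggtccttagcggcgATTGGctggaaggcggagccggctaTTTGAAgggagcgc
Cdc20 at chr4:118437344-118437376, minus strand: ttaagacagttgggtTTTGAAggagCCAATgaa
Cdk1 at chr10:69352913-69352975, minus strand: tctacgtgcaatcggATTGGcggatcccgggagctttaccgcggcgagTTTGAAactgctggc
Cenpn at chr8:116921707-116921739, plus strand: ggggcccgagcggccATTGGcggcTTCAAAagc
Ube2c at chr2:164769857-164769920, plus strand: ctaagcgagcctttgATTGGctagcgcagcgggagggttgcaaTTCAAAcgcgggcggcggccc

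The same letters were counted in the other genes. Of 133 promoters of lower genes outside the cell cycle lists 11 held TTTGAA (8.27%) and 6 held both motifs (4.51%). Of 109 promoters of genes at least 2-fold higher 17 held TTTGAA (15.6%, against 10.1% of all promoters) and 4 held both (3.67%). The 20 cell cycle promoters with both were among 362 with both over all genes, so the letters were also common outside the lower cell cycle genes. The E2F motifs TTTCGCGC and TTTGGCGC, on either strand, were in 4 of the 72 lower cell cycle promoters (5.56%) and in 1.30% of all promoters. For the contractile group the CArG box, the element bound by serum response factor, was searched on both strands in the same windows. It was in 8 of 30 promoters of the smooth muscle contractile list (26.7%) and in 1.26% of all promoters. Of the 6 contractile genes at least 2-fold lower, 4 had a promoter in the set searched, and Myh11 and Actg2 did not. The box was in 1 of those 4, that of Acta1. The pieces below are a selection of genes with the box and are not the 8 promoters just counted. Ldb3, Fhl2 and Cnn2, at -0.34, -0.29 and -0.15, also held it and are not printed. The pieces show that box in capitals in genes ordered from the largest negative difference, -2.34 for Acta1, through -0.95 for Fhl1, -0.54 for Srf and -0.41 for Vcl, to -0.03 for Myl9 and 0 for Actc1.
Acta1 at chr8:123894824-123894863, minus strand: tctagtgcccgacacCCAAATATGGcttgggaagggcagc
Fhl1 at chrX:56779566-56779605, plus strand: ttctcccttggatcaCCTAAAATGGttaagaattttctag
Srf at chr17:46556200-46556239, minus strand: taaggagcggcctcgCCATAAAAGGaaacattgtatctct
Vcl at chr14:20929156-20929195, plus strand: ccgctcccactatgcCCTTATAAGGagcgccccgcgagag
Myl9 at chr2:156775288-156775327, plus strand: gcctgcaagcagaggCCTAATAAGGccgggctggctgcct
Actc1 at chr2:114052898-114052937, minus strand: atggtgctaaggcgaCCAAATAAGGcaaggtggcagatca

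The box was therefore printed both in genes that were lower and in genes whose levels were alike in both arrays. The palindromic SMAD motif GTCTAGAC was in 0 of 28 promoters found for the TGF-beta response list and in 19 of all 9468 promoters (0.201%). The GC-rich letters GGCGCC were in 4 of those 28 (14.3%) and in 17.4% of all promoters.

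Across the 11808 genes 144 were at least 2-fold higher in the Tgfbr2/Smad4 cKO array, which is 1.22%, and 257 were at least 2-fold lower, which is 2.18%. Any positive difference was seen for 31.1% of genes and any negative one for 32.2%, while 4336 genes (36.7%) had exactly the same deposited value in both arrays, a feature of the table whose cause was not tested. The median difference was 0 and the SD over genes was 0.39. At least 4-fold differences were 25 higher and 40 lower, and at least 8-fold differences were 5 higher and 7 lower. The higher genes had a median level of 8.50 in wild type and 10.1 in Tgfbr2/Smad4 cKO, and the lower genes of 9.06 and 7.44. In wild type 27 of the 144 higher genes were below the median signal, and in Tgfbr2/Smad4 cKO 55 of the 257 lower genes were. Just inside the 2-fold rule lay Ephb3 at 1.003 and Agtr1a at -1.003, and just outside it Fat4 at 0.999 and Mcm3 at -0.999, with 35 genes within 0.05 inside the rule and 43 outside. At the level filter the agouti gene a was just inside with a highest level of 6.63, and the cadherin gene Cdh6 just outside.

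**Figure D1:**
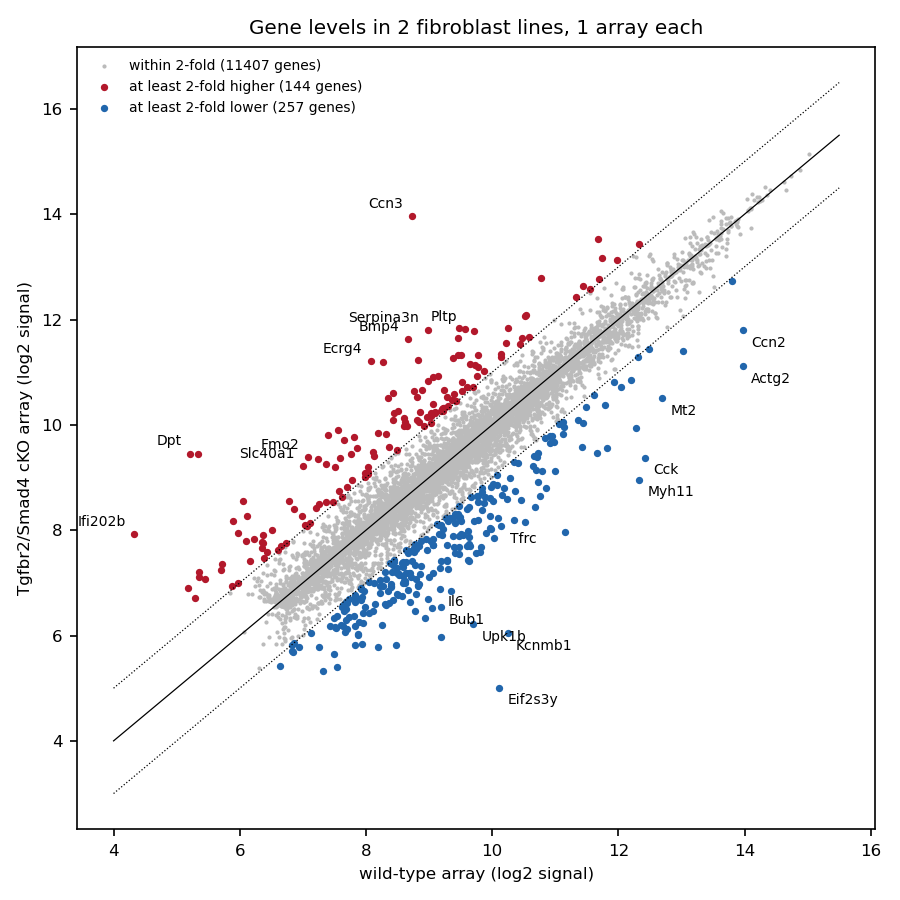
Level of each of the 11808 genes in the wild-type array (x axis, log2 signal) and the Tgfbr2/Smad4 cKO array (y axis, log2 signal), 1 array each, with the line of equality and dotted lines at 2-fold. The 144 red genes lie above the upper dotted line, Ccn3 farthest from it, and the 257 blue genes lie below the lower one, Eif2s3y and Kcnmb1 farthest.

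The labelled cell type was checked against its markers. S100a4, which encodes FSP1, had levels of 13.18, 13.16 and 12.71, at the 99.4th, 99.3rd and 98.9th percentile of named genes in their arrays. The mesenchymal filament gene Vim (14.22, 14.22 and 14.24) and the collagen gene Col1a1 (14.33, 14.38 and 14.52) were high and alike in all 3. Defining markers of squamous epithelium (Krt5, Krt14, Cdh1, Epcam, Trp63), leukocytes (Ptprc, Adgre1, Itgam) and endothelium (Pecam1, Cdh5) were below the median signal in every array. Other members of these lists were not: at or above it in wild type were 4 of 17 squamous, 6 of 17 leukocyte and 5 of 12 endothelial markers. Tgfbr2 had levels of 10.25, 10.25 and 10.29, and Smad4 of 11.06, 11.06 and 11.04. Both values summarise probes along the whole transcript, so they do not read the removed exons separately and check nothing about the knockouts. Bmp7 was at 6.45 in each array, below the median signal.

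The Tgfbr2/Smad4 cKO array also differed in its sex-linked genes, so sex and genotype cannot be told apart in any difference given here. Xist, which silences 1 X chromosome in female cells, was high there alone at 9.44, against 5.33 and 5.35. Of the 4 Y-linked genes that reached the filter 3 were at least 2-fold lower: the translation factor gene Eif2s3y (10.12, 10.00 and 5.01) and the histone demethylase genes Uty (8.48, 8.44 and 5.83) and Kdm5d (7.54, 7.73 and 5.41). Their X-linked partners, which escape inactivation, differed by 1.02 for Kdm6a, 0.61 for Kdm5c and 0.53 for Eif2s3x. Of 343 X-linked genes 5 were at least 2-fold higher (1.46%, against 1.22% of all genes) and 13 lower (3.79%, against 2.18%), with a median of 0.

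Markers of other cell types were set beside the comparison as whole lists. Fibroblast markers had a summed signal of 16.8, 16.8 and 17.0 over 16 genes. Smooth muscle and pericyte markers summed to 15.1, 15.2 and 13.2 over 12 genes. Of the 10 that passed the filter 4 were at least 2-fold lower (40%, against 2.18% of all genes). The receptor gene Notch3 was the 1 at least 2-fold higher, by 1.18 (10%, against 1.22%). Simple epithelium and mesothelium markers summed to 11.4, 11.1 and 10.2 over 12 genes, with 4 of 9 at least 2-fold lower (44.4%, against 2.18%). These 4 were the uroplakin genes Upk1b (9.70, 8.87 and 6.21) and Upk3b (8.79, 7.72 and 7.65), the keratin gene Krt19 (8.82, 9.25 and 6.93) and the transcription factor gene Bnc1 (6.85, 6.19 and 5.68). Bnc1 reached the level filter only through its wild-type value. Leukocyte markers summed to 10.7, 11.2 and 10.4 over 17 genes, squamous markers to 10.4, 10.4 and 10.3 over 17, and endothelial markers to 11.0, 11.1 and 12.0 over 12, the last led by Eng, which fibroblasts also express. The protease gene Mcpt8 of the leukocyte list was at 7.72, 8.72 and 6.36, and the phosphatase gene Ptprb of the endothelial list at 9.05, 8.67 and 6.52. The part that such cells may have in the differences below was not tested, and fewer cells of a type and less RNA per cell cannot be told apart in these bulk samples.

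The largest positive difference was that of Ccn3. Ccn3, a matricellular signaling protein of the CCN family, had levels of 8.73, 8.64 and 13.97. Dpt, the matrix protein dermatopontin, was at 5.21, 5.85 and 9.45, and the secreted growth regulator Ecrg4 at 8.08, 8.01 and 11.21. In all of these the wild-type and Tgfbr2 cKO levels lay close together and the Tgfbr2/Smad4 cKO level apart. Kcne4, a potassium channel subunit, was at 8.27, 8.50 and 11.19. Serpina3n, a serine protease inhibitor of a family of near-identical copies, was at 8.98, 8.66 and 11.80. Ifi202b, an interferon-inducible gene of another such family, was at 4.33, 4.35 and 7.93, and for both genes cross-hybridisation between copies was not tested. Further down the same ranking were the lipid phosphatase-related gene Plppr4 (6.05, 5.94 and 8.55), the fibulin gene Fbln7 (8.83, 8.91 and 11.23) and the protease inhibitor-like gene Ctla2a (8.43, 8.02 and 10.61). Dpt, Ifi202b and Plppr4 reached the level filter only through their Tgfbr2/Smad4 cKO values.

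**Figure D2:**
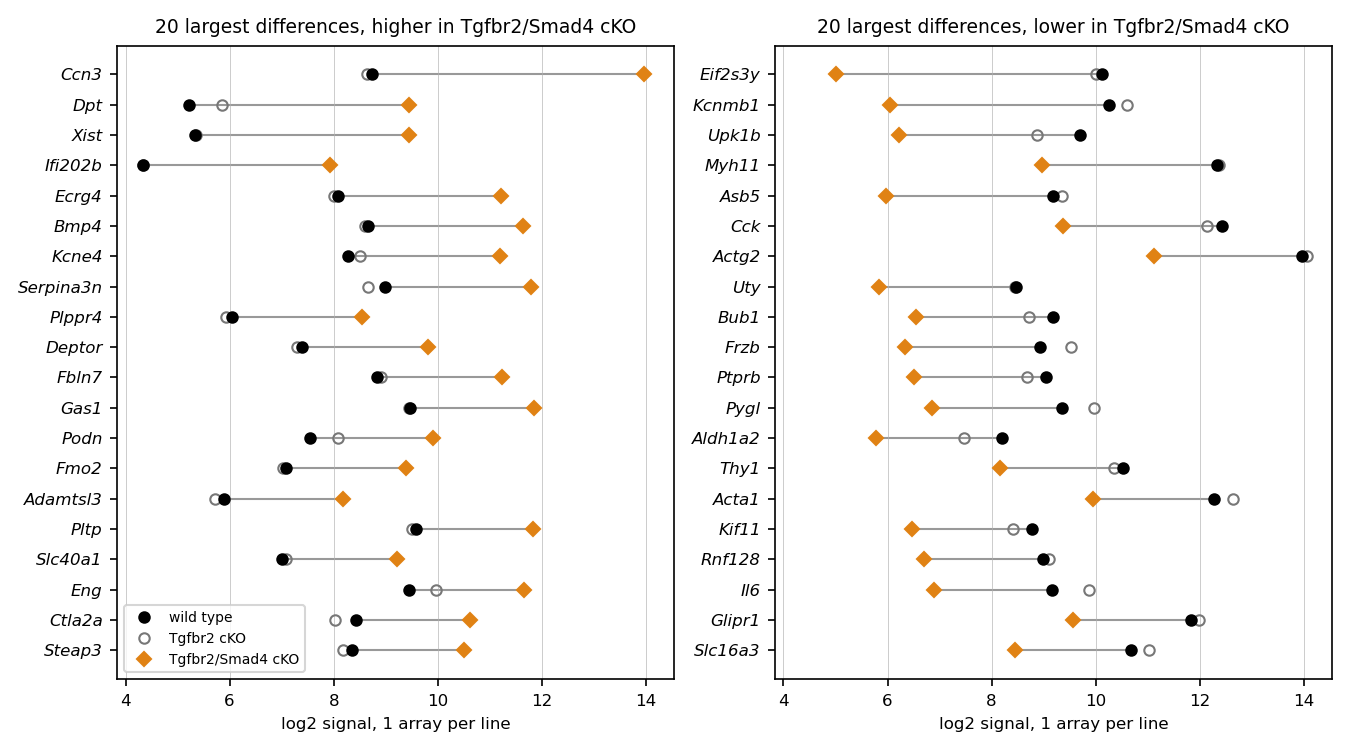
Levels (x axis, log2 signal) of the 20 genes with the largest positive difference (left) and the 20 with the largest negative difference (right) between Tgfbr2/Smad4 cKO and wild type, with 1 point per array and a line joining those arrays. In every row the open Tgfbr2 cKO point lies nearer to wild type than to Tgfbr2/Smad4 cKO, as for Ccn3 at 8.73, 8.64 and 13.97.

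At the other end of the ranking the genes were of several kinds. Cck, which encodes the peptide hormone cholecystokinin, had levels of 12.43, 12.13 and 9.37. Asb5, an ankyrin repeat and SOCS box gene, was at 9.19, 9.34 and 5.97, and the ubiquitin ligase gene Rnf128 at 8.98, 9.09 and 6.69. Thy1, a surface glycoprotein used to sort fibroblasts, was at 10.52, 10.35 and 8.16. It was the 1 of 15 fibroblast markers at least 2-fold lower (6.67%, against 2.18% of all genes), although 4 were higher (26.7%, against 1.22%). These 4 were Dpt, Pdgfra, Lum and Fap, and Dpt reached the level filter only through its Tgfbr2/Smad4 cKO value. Il6, the cytokine interleukin 6, was at 9.17, 9.88 and 6.89. It was the 1 of 34 cytokine and receptor genes at least 2-fold different (2.94% lower, against 2.18% of all genes). Glipr1, a secreted CAP-family protein gene, was at 11.82, 11.99 and 9.56.

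Genes of the TGF-beta and BMP pathways showed a mixture of directions. Among 131 such genes 6 were higher by 2-fold or more (4.58%, against 1.22% of all genes) and 11 lower (8.40%, against 2.18%), with 46 above 0, 52 below 0 and a median of 0. Among 16 TGF-beta ligand and activation genes Tgfb2 was higher by 1.07 (9.19, 9.34 and 10.27), while Tgfb3 (10.48, 10.51 and 9.76) and Tgfb1 (9.81, 9.95 and 9.78) were at -0.72 and -0.03. The latent TGF-beta binding protein genes Ltbp3 and Ltbp1 had differences of 0.73 and 0.59. Inhba, the activin A subunit gene, was at 12.20, 12.44 and 10.84, and Lrrc32, which tethers latent TGF-beta at the cell surface, at 11.36, 11.85 and 10.09. Both were thus at least 2-fold lower in the Tgfbr2/Smad4 cKO array than in wild type.

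Among 14 receptor genes the coreceptor gene Eng, which encodes endoglin, had the largest difference, with levels of 9.46, 9.96 and 11.65. The type I receptor genes Bmpr1b (9.45, 9.46 and 8.31) and Tgfbr1 (9.26, 9.36 and 8.46) had differences of -1.14 and -0.79. The type I receptor gene Acvrl1 had a difference of -0.48 and the type II receptor gene Bmpr2 of 0.21. The type II receptor genes Acvr2a and Acvr2b were at 0.02 and 0.05, and the type I receptor genes Bmpr1a, Acvr1 and Acvr1b at -0.07, -0.08 and 0.01. None of 24 genes for SMADs and their regulators differed 2-fold, against 1.22% higher and 2.18% lower of all genes, and their median was 0. At those shares a list of 24 genes need hold none. Smad1, Smad2, Smad3, Smad5 and the corepressor gene Ski had equal values in all 3 arrays. The inhibitory SMAD gene Smad7, a feedback target of the pathway, was at 10.04, 10.04 and 9.71. The corepressor genes Tgif1 and Skil had differences of -0.55 and -0.45, and the ubiquitin ligase gene Nedd4l of -0.71.

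BMP ligand and modulator genes held the largest contrasts of the pathway, with 1 of 18 at least 2-fold higher (5.56%, against 1.22% of all genes) and 2 lower (11.1%, against 2.18%). Bmp4 had levels of 8.66, 8.61 and 11.63, a 7.83-fold difference from wild type. Gdf6, another BMP family ligand, was at 9.64, 9.62 and 7.41, and Bmper, an extracellular BMP binding protein, at 10.79, 10.56 and 9.12. In both the wild-type and Tgfbr2 cKO arrays lay together above Tgfbr2/Smad4 cKO. The BMP antagonist gene Grem1, whose product binds BMP4, was at 14.04, 14.04 and 14.29, and the activin antagonist gene Fst at 10.63, 10.26 and 11.13.

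Response genes of the pathways lay on both sides of 0. Of 46 TGF-beta response genes 2 were at least 2-fold higher (4.35%, against 1.22% of all genes) and 4 were lower (8.70%, against 2.18%). Above 0 lay 16 of them, against 31.1% of all genes, and below 0 lay 25, against 32.2%, with a median of -0.08. The lower 4 were the connective tissue growth factor gene Ccn2 (13.97, 14.16 and 11.80), the calponin gene Cnn1 (13.02, 13.14 and 11.40), the fibronectin receptor gene Itga5 (12.04, 12.31 and 10.72) and the proteoglycan gene Vcan (10.95, 10.72 and 9.80). The higher ones were the CDK inhibitor gene Cdkn2b (10.23, 10.19 and 11.56) and the collagen receptor gene Itga11 (10.54, 10.18 and 12.08). Among 25 BMP response genes 1 was at least 2-fold higher (4%, against 1.22% of all genes) and 2 were lower (8%, against 2.18%). The inhibitor of differentiation gene Id2 was at 10.92, 10.91 and 9.79, while its relatives Id1 and Id3 had differences of 0.00 and -0.17. Gata2 was at 8.44, 8.44 and 7.43, and the small proteoglycan gene Ogn was on the other side at 10.24, 10.09 and 11.85. The list had a median of 0.

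Genes of cell division lay mostly below 0. Of 288 cell cycle genes 85 (29.5%) were at least 2-fold lower, against 2.18% of all genes, and 230 were below 0, against 32.2% of all genes, with a median of -0.52. They made up 33.1% of all genes at least 2-fold lower. The share differed along the cycle: it was 18 of 25 for mitotic kinases and checkpoint genes and 20 of 32 for spindle motors and cytokinesis genes, with medians of -1.28 and -1.25. It was 12 of 26 for centromere and kinetochore genes, 6 of 23 for cohesin and condensin, 4 of 24 for replication licensing, 3 of 28 for the replication fork and 1 of 18 for nucleotide synthesis, with medians of -0.78, -0.27, -0.43, -0.54 and -0.40. Below 0 lay 22 of the 24 licensing genes and 25 of the 28 fork genes, and differences between lists were not tested.

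**Figure D3:**
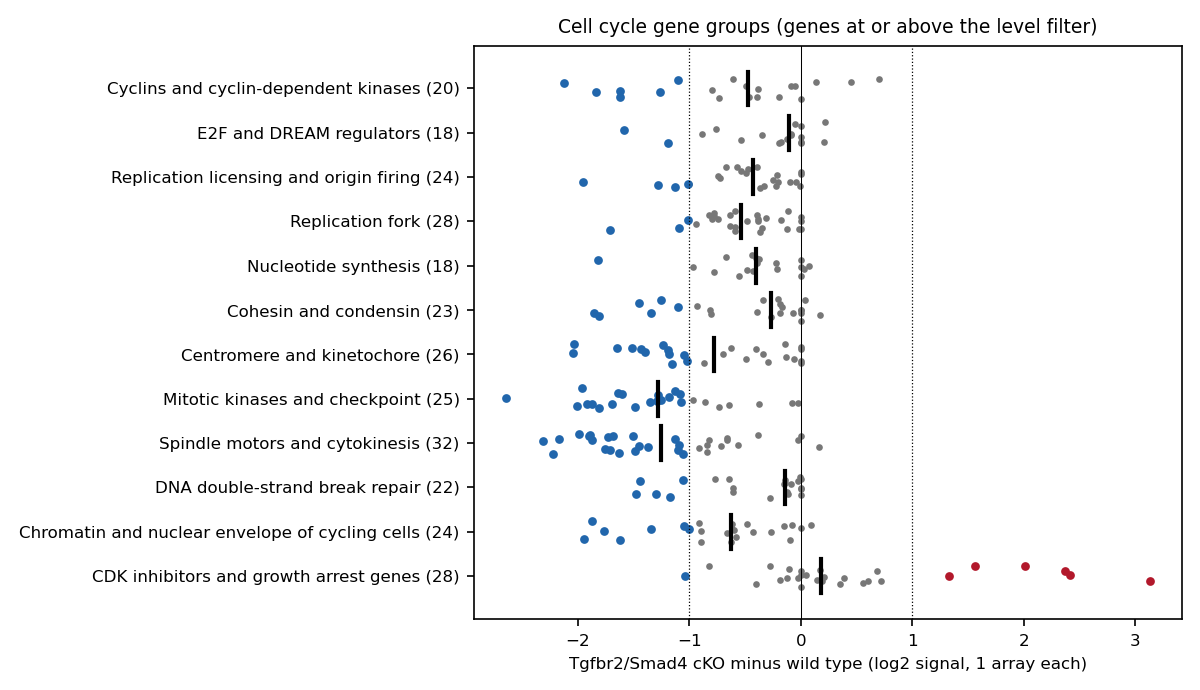
Differences of Tgfbr2/Smad4 cKO minus wild type (x axis, log2 signal, 1 array each) for the genes of 12 cell cycle lists, 1 point per gene, with black bars at list medians and dotted lines at 2-fold. The mitotic kinase and spindle lists have medians of -1.28 and -1.25, and the CDK inhibitor and growth arrest list at the bottom has a median of 0.18 and 6 genes at least 2-fold higher.

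Among mitotic regulators Bub1, a spindle checkpoint kinase, had the largest difference with levels of 9.18, 8.72 and 6.54. The Aurora and Polo kinase genes Aurka (9.98, 9.77 and 8.02) and Plk1 (9.96, 9.83 and 8.05) had differences of -1.96 and -1.92. Cdc20, which activates the anaphase-promoting complex, was at 9.97, 9.81 and 8.62, and Fbxo5, an inhibitor of that complex, at 8.67, 8.44 and 6.86. In each of these the Tgfbr2/Smad4 cKO level was the lowest of the 3 arrays. The spindle motor gene Kif11 was at 8.78, 8.41 and 6.46, the cytokinesis regulator gene Ect2 at 9.80, 9.32 and 7.58, and the midzone crosslinker gene Prc1 at 9.61, 9.28 and 7.44. At the kinetochore Cenpe, a motor, was at 8.25, 7.97 and 6.20, Nuf2 of the microtubule-binding NDC80 complex at 9.30, 8.86 and 7.27, and Knl1, the scaffold that holds the checkpoint kinases, at 8.11, 7.78 and 6.46.

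Of the condensin complexes, which compact mitotic chromosomes, the condensin I genes Ncapg, Ncaph and Ncapd2 were lower at -1.86, -1.45 and -1.35. The condensin II gene Ncapg2 and the shared core gene Smc2 were lower at -1.81 and -1.25. Among cyclin and CDK genes Ccna2 (9.82, 9.70 and 7.69), Ccnb2 (9.62, 9.40 and 7.99) and Ccne2 (7.89, 7.89 and 6.26) were at least 2-fold lower. Cdk1, the kinase of mitotic entry, was at 10.67, 10.33 and 9.41, and its activating phosphatase gene Cdc25c at 7.49, 7.44 and 5.65. The D-type cyclin genes, which respond to growth factors, went the other way, with 0.70 for Ccnd1 (11.43, 11.05 and 12.13) and 0.45 for Ccnd2 (13.50, 13.54 and 13.95). Foxm1, a transcription factor of late cell cycle genes, was at 8.41, 8.45 and 7.22, while E2f1 had equal values of 9.19 in all 3 arrays.

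In replication the helicase gene Mcm6 had levels of 9.91, 9.81 and 7.95, and its partners Mcm5 and Mcm7 had differences of -1.13 and -1.01. The licensing kinase subunit gene Dbf4 was at 9.49, 9.22 and 8.22, the primase gene Prim1 at 8.79, 8.65 and 7.08, and the ribonucleotide reductase gene Rrm2 at 10.73, 10.59 and 8.91. Top2a was at -1.01 as the mean of 2 probe sets that disagreed, at -1.95 and -0.07. Of 22 double-strand break repair genes 5 were at least 2-fold lower (22.7%, against 2.18% of all genes). Among them were the exonuclease gene Exo1 (7.26, 6.86 and 5.78) and the chromatin remodeller gene Hells (8.72, 8.39 and 7.42). Among chromatin genes of cycling cells Mki67 was at 9.65, 9.34 and 7.70, the histone chaperone gene Asf1b at 9.18, 8.86 and 7.41, and the lamin gene Lmnb1 at 9.06, 8.75 and 7.71.

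Of 28 CDK inhibitor and growth arrest genes 6 were at least 2-fold higher (21.4%, against 1.22% of all genes) and 1 was lower (3.57%, against 2.18%). Above 0 lay 17 of them, against 31.1% of all genes, and below 0 lay 8, against 32.2%, with a median of 0.18. The list was chosen with earlier results of these data known. The neighbouring inhibitor genes Cdkn2a (9.77, 9.54 and 11.33) and Cdkn2b differed by 1.56 and 1.33. Gas1, a membrane protein gene first described in arrested fibroblasts, was at 9.48, 9.44 and 11.84, and the secreted ligand gene Gas6 at 10.77, 10.38 and 12.79. Deptor, an inhibitor of mTOR, was at 7.39, 7.30 and 9.81. The lower member was Cdkn3, a phosphatase of CDK2 whose level is known to peak in mitosis, at 7.92, 7.72 and 6.88, and another inhibitor, Cdkn1b, had a difference of -0.40. Of 30 p53 target genes 1 was at least 2-fold higher (3.33%, against 1.22% of all genes) and 1 lower (3.33%, against 2.18%). Above 0 lay 19, against 31.1% of all genes, and below 0 lay 4, against 32.2%, with a median of 0.17. The lower one, the proapoptotic NOXA gene Pmaip1, was at 9.18, 9.16 and 7.28, and Mdm2 had equal values of 11.50 in all 3.

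In the smooth muscle contractile list 6 of 33 genes were at least 2-fold lower (18.2%, against 2.18% of all genes) and 0 were at least 2-fold higher. Below 0 lay 29 of the 33, against 32.2% of all genes, and the median was -0.36. Myh11, the smooth muscle myosin heavy chain, had levels of 12.33, 12.36 and 8.96. The actin genes Actg2 (13.97, 14.05 and 11.12) and Acta1 (12.28, 12.65 and 9.94) had differences of -2.85 and -2.34. Des, which encodes the muscle filament desmin, was at 8.70, 8.37 and 6.64, and the Z-disc gene Pdlim3 at 8.77, 8.77 and 7.59. In each of these the wild-type and Tgfbr2 cKO levels lay together, above Tgfbr2/Smad4 cKO. Other members differed less: Acta2 was at 14.66, 14.70 and 14.46, Tagln at 14.10, 14.09 and 13.73, and Myl9 at 13.88, 13.95 and 13.85. The myosin light chain kinase gene Mylk was on the other side, at 9.12, 9.21 and 9.91, with the highest difference of the list, 0.79. The smooth muscle marker list, whose sum was 13.2 here against 15.1 in wild type, holds Myh11, Actg2, Des and Cnn1, and its part in this result was not tested. Of 34 serum response factor and MRTF target genes 4 were at least 2-fold lower (11.8%, against 2.18% of all genes), 28 were below 0 and the median was -0.23.

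Channel and vasoactive signaling genes included large single differences. Kcnmb1, the beta subunit of the smooth muscle calcium-activated potassium channel, had levels of 10.25, 10.61 and 6.04, while Kcnma1, its pore-forming partner, was at 5.85, 5.98 and 6.81. Kcnma1 reached the level filter only through its Tgfbr2/Smad4 cKO value, and its difference stayed within the 2-fold rule. The cation channel gene Trpv2 was at 9.40, 9.67 and 7.68. Of 37 cyclic nucleotide and vasoactive genes 6 were at least 2-fold lower (16.2%, against 2.18% of all genes) and 2 higher (5.41%, against 1.22%). The lower ones included the G protein regulator genes Rgs16 (9.77, 10.26 and 8.19) and Rgs4 (7.42, 7.21 and 6.19), and the bradykinin receptor gene Bdkrb1 (9.03, 9.23 and 7.80). The higher ones were the cGMP-dependent kinase gene Prkg1 (9.53, 9.50 and 10.63) and the adenylyl cyclase gene Adcy1 (7.98, 7.85 and 9.01). The 29 YAP and TEAD response genes included 3 that were lower by 2-fold or more (10.3%, against 2.18% of all genes) and 2 that were higher (6.90%, against 1.22%). Ccn1 and Ccn2 of that list differed by -0.18 and -2.17.

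Of 178 matrix and adhesion genes 99 lay above 0, against 31.1% of all genes, and 49 below 0, against 32.2%, with a median of 0.08. At least 2-fold higher were 19 (10.7%, against 1.22% of all genes) and lower 12 (6.74%, against 2.18%). Several of the higher genes encode small leucine-rich proteoglycans, which bind collagen fibrils. Of 22 proteoglycan genes 4 were at least 2-fold higher (18.2%, against 1.22% of all genes) and 1 was lower (4.55%, against 2.18%). Podn was at 7.55, 8.08 and 9.90, Ogn was higher by 1.60, Lum was at 10.14, 10.21 and 11.35, and Fmod at 8.92, 8.68 and 9.97, while Dcn was nearly level at 13.79, 13.84 and 13.95. Of 33 collagen chain genes 21 were above 0, against 31.1% of all genes, 4 were below 0, against 32.2%, and the median was 0.14. The neighbouring collagen VI genes Col6a1 (9.51, 9.43 and 11.32) and Col6a2 (8.60, 8.70 and 9.99) were the 2 at least 2-fold higher (6.06%, against 1.22% of all genes). Col14a1, a fibril-associated collagen, was the 1 lower (3.03%, against 2.18%) at 8.59, 9.30 and 7.30. Fibrillar collagen genes differed less, by 0.43 for Col3a1 and 0.82 for Col5a1.

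Elastic fibre and basement membrane genes were above 0 in 18 of 27, against 31.1% of all genes, and below 0 in 5, against 32.2%, with a median of 0.22. At least 2-fold higher were 2 (7.41%, against 1.22% of all genes) and lower 1 (3.70%, against 2.18%). The fibulin-family genes Fbln7 and Efemp1 were higher by 2.40 and 1.08, and the laminin gene Lama2 was at 9.72, 9.82 and 8.17. Among other matricellular genes Matn2 was at 9.36, 9.55 and 10.48, whereas Postn, the periostin gene, had a difference of -0.72. The CCN family therefore spanned Ccn3 at 5.24, Ccn1 at -0.18 and Ccn2 at -2.17. In the integrin list Itga11 and Itga5 stood on opposite sides, as given above. The protocadherin genes Pcdh19 (8.31, 8.22 and 6.59) and Pcdh9 (8.53, 8.87 and 7.15) were the 2 of 15 cadherin genes at least 2-fold different (13.3% lower, against 2.18% of all genes).

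**Figure D4:**
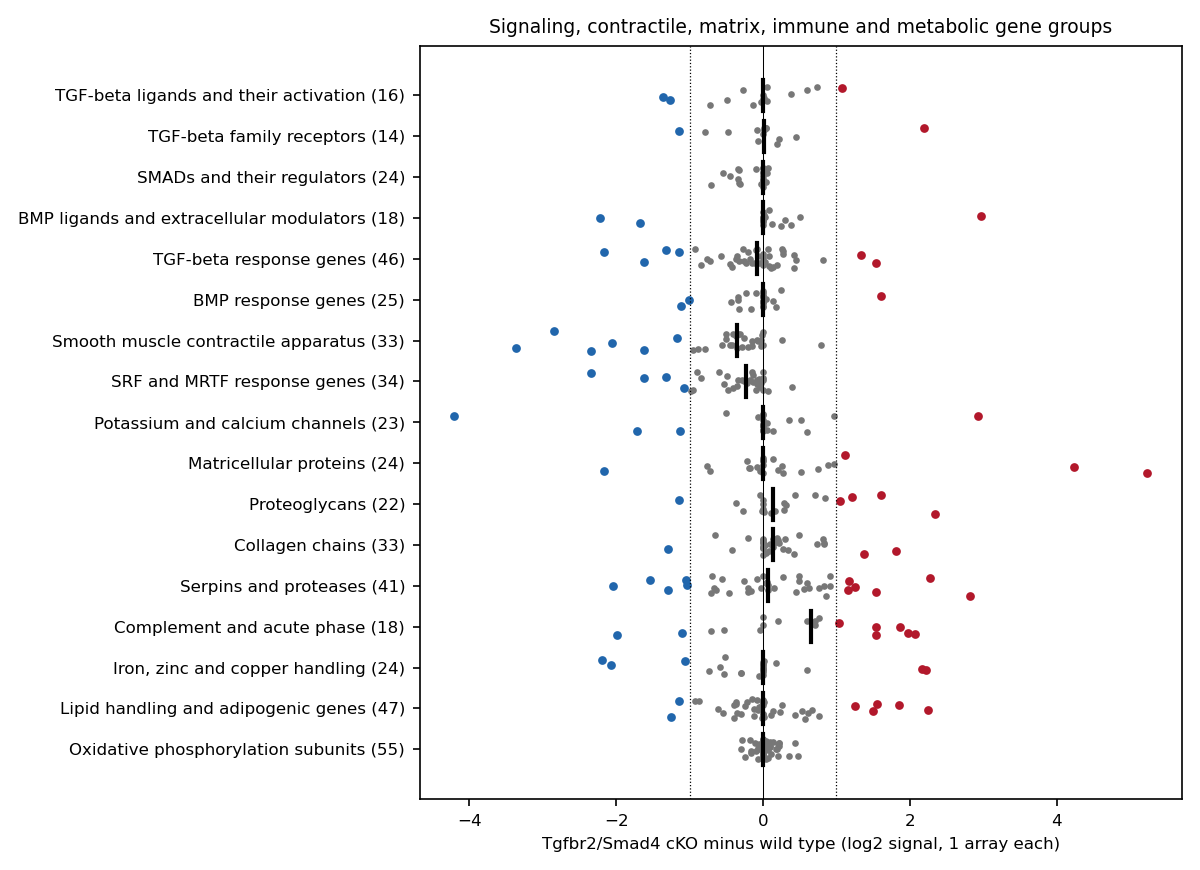
Differences of Tgfbr2/Smad4 cKO minus wild type (x axis, log2 signal, 1 array each) for 17 lists of signaling, contractile, matrix, immune and metabolic genes, 1 point per gene at or above the level filter, with black bars at list medians and dotted lines at 2-fold. The SMAD and oxidative phosphorylation lists have 0 genes past 2-fold, against 1.22% higher and 2.18% lower of all genes. The complement list has a median of 0.65.

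Proteases and their inhibitors lay on both sides of 0. Plau, the urokinase gene of plasminogen activation, was at 10.85, 11.01 and 8.81, and its receptor gene Plaur at 10.97, 11.09 and 9.68. Mmp10, a stromelysin gene, was at 8.14, 8.69 and 6.60, and Mmp12, the macrophage elastase gene, was at 7.25, 8.33 and 8.51, so that for Mmp12 wild type was the array that stood apart. The matrix protease gene Adamts1 (11.97, 11.76 and 13.13) and the ADAMTS-like gene Adamtsl3 (5.90, 5.72 and 8.17) were higher. Adamtsl3 reached the level filter only through its Tgfbr2/Smad4 cKO value. In this list of 41 genes 6 were higher by 2-fold or more (14.6%, against 1.22% of all genes) and 5 were lower (12.2%, against 2.18%).

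Growth factor, receptor and guidance genes included 13 of 216 at least 2-fold higher (6.02%, against 1.22% of all genes) and 8 lower (3.70%, against 2.18%), with a median of 0. Vegfd, a ligand of lymphatic vessel growth, was at 11.67, 11.13 and 13.53, Angpt2 of blood vessels at 6.99, 6.34 and 8.27, and Ptn, the heparin-binding growth factor pleiotrophin, at 7.37, 7.23 and 9.25. Pdgfra, the receptor that marks many fibroblasts, was at 9.73, 10.14 and 11.13, and the related Pdgfrl at 9.72, 10.58 and 11.78. For both, the Tgfbr2 cKO level lay between the other two. Insulin-like growth factor binding proteins differed in opposite directions, with Igfbp3 at 8.89, 8.54 and 10.67, Igfbp6 at 11.55, 11.36 and 12.59, and Igfbp5 at 8.58, 9.43 and 7.0005. Among 41 Wnt genes 2 were at least 2-fold higher (4.88%, against 1.22% of all genes) and 1 was lower (2.44%, near the 2.18% of all genes). Wnt2 (6.79, 6.68 and 8.55) and the antagonist gene Dkk2 (7.86, 7.92 and 9.56) were higher, and the antagonist gene Frzb (8.93, 9.53 and 6.34) was lower. Of 34 EGF family and ERK feedback genes 4 were at least 2-fold lower (11.8%, against 2.18% of all genes) and 22 were below 0, with a median of -0.19. The ligand gene Btc was at 8.05, 8.11 and 6.44, the EGF receptor inhibitor gene Errfi1 at 11.49, 11.53 and 10.33, and the early response gene Ier3 at 11.44, 11.56 and 10.04.

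Among 64 patterning transcription factor genes 1 was at least 2-fold higher (1.56%, against 1.22% of all genes) and 5 were lower (7.81%, against 2.18%). Tbx18, a T-box factor of mesenchyme, was at 9.47, 9.76 and 7.89, Foxf2, a forkhead factor of gut mesenchyme, at 9.51, 9.63 and 7.93, Satb1 at 8.58, 8.46 and 7.12, and Foxp2 at 9.87, 9.98 and 8.52. Prdm6, a smooth muscle chromatin regulator, was at 7.61, 7.39 and 8.62. Of 21 HOX genes 1 was at least 2-fold higher (4.76%, against 1.22% of all genes) and 0 were lower. This was Hoxc6, at 9.03, 8.81 and 10.23. Genes of the circadian clock showed 0 of 18 past 2-fold, against 1.22% higher and 2.18% lower of all genes. At those shares a list of 18 genes need hold none. Their median was 0, with the highest difference, 0.61, for the output gene Dbp.

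Of 24 iron and metal handling genes 2 were at least 2-fold higher (8.33%, against 1.22% of all genes) and 3 lower (12.5%, against 2.18%). Slc40a1, ferroportin, which exports iron, had levels of 6.999, 7.08 and 9.21, and Steap3, which reduces iron in endosomes, of 8.35, 8.19 and 10.51. Tfrc, the transferrin receptor that imports iron, was at 10.15, 10.31 and 8.08. The export and import genes were thus on opposite sides, while the ferritin genes Fth1 (14.36, 14.34 and 14.37) and Ftl1 (13.93, 13.99 and 13.62) were nearly level. The metallothionein genes Mt2 (12.70, 12.89 and 10.50) and Mt1 (12.49, 12.67 and 11.43), neighbours that bind zinc and copper, were both lower, and how far their similar sequences share probe signal was not tested.

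Lipid and redox enzymes held further paired differences. Of 47 lipid handling and adipogenic genes 5 were at least 2-fold higher (10.6%, against 1.22% of all genes) and 2 lower (4.26%, against 2.18%). Of 56 redox, glutathione and aldehyde genes 2 were higher (3.57%) and 2 lower (3.57%). The neighbouring flavin monooxygenase genes Fmo1 (6.11, 6.11 and 8.26) and Fmo2 (7.09, 7.04 and 9.39) were both higher, as were the neighbouring transporter genes Abca8a (5.35, 5.27 and 7.21) and Abca8b (5.70, 5.58 and 7.25), close copies whose shared signal was not tested. Fmo1, Abca8a and Abca8b reached the level filter only through their Tgfbr2/Smad4 cKO values. Pltp, the phospholipid transfer protein gene, was at 9.57, 9.49 and 11.82. Cyp7b1, an oxysterol hydroxylase, was at 6.51, 7.32 and 8.01, and Ch25h, which makes an oxysterol, at 9.89, 10.40 and 8.63. The oxysterol genes differed in opposite directions. Aldh1a2, which makes retinoic acid and is also abundant in mesothelium, was at 8.19, 7.46 and 5.78, and the mesothelial marker sum differed in the same direction, 11.4 in wild type and 10.2 in Tgfbr2/Smad4 cKO, whose part was not tested.

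Of 32 genes of glycolysis, lactate and glycogen 2 were at least 2-fold lower (6.25%, against 2.18% of all genes) and 1 was higher (3.12%, against 1.22%). Below 0 lay 21 of them, against 32.2% of all genes, with a median of -0.22. Slc16a3, the lactate exporter MCT4, was at 10.67, 11.02 and 8.44. Pygl, which releases glucose from glycogen, was at 9.35, 9.97 and 6.85. The glucose transporter gene Slc2a1 was at 12.21, 12.38 and 11.48, and Ldha at 13.48, 13.54 and 13.13. Eno2, the gene of the neuronal enolase, was the 1 at least 2-fold higher, at 7.99, 8.02 and 9.08. Of 55 oxidative phosphorylation subunit genes 0 differed 2-fold, against 1.22% higher and 2.18% lower of all genes, and their median was 0. Amino acid transport and ATF4 target genes had 2 of 41 at least 2-fold lower (4.88%, against 2.18% of all genes) and 0 higher. The lower ones were the transporter genes Slc43a3 and Slc7a1 at -1.08 and -1.04, while Atf4 and Atf3 were equal in the pair.

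**Figure D5:**
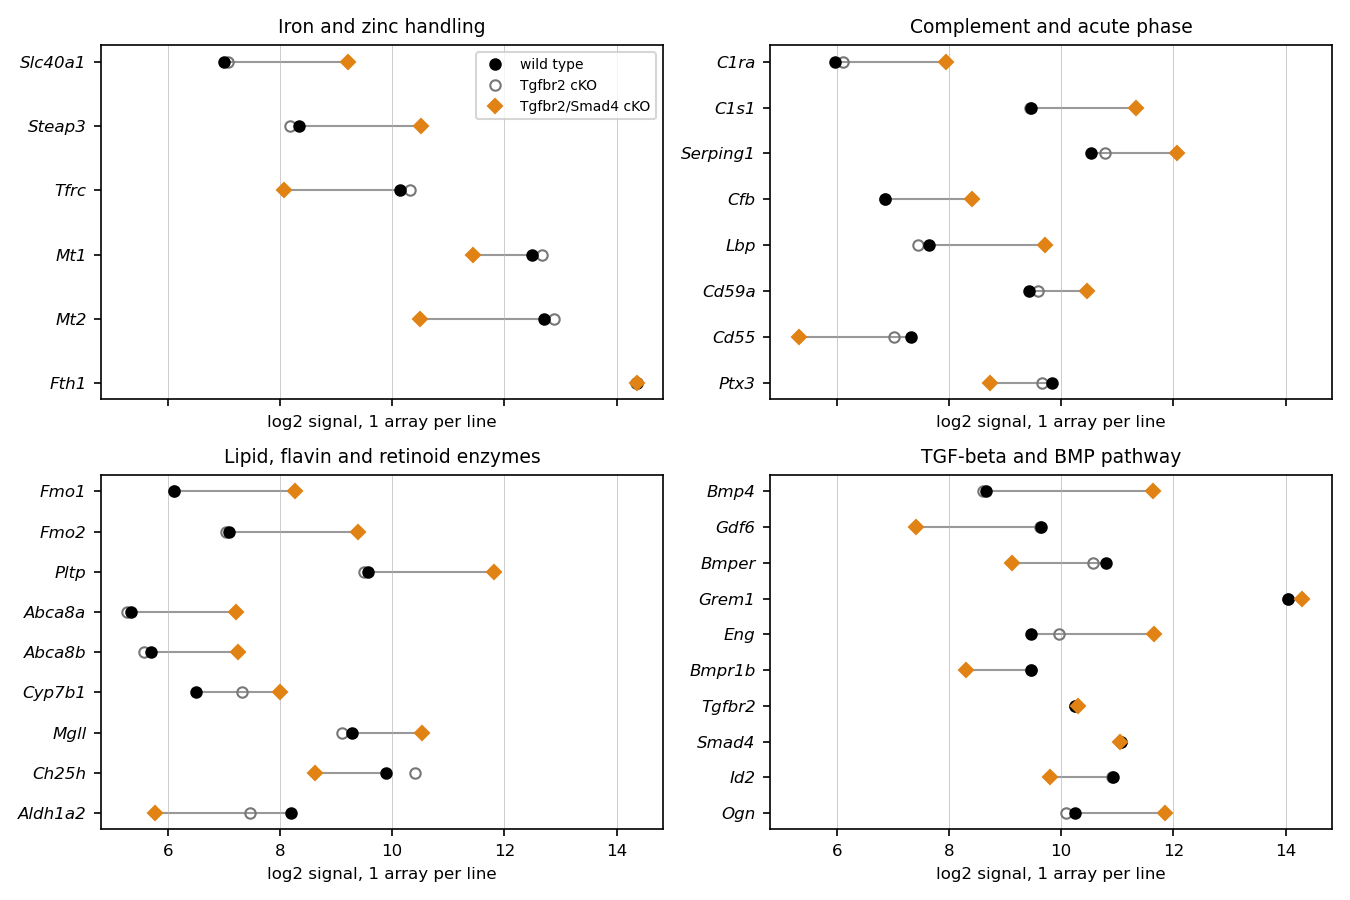
Levels (x axis, log2 signal) of selected iron, complement, lipid and TGF-beta family genes in the 3 arrays, with 1 point per array and a line joining wild type and Tgfbr2/Smad4 cKO. Slc40a1 and Tfrc lie on opposite sides (6.999 to 9.21 and 10.15 to 8.08), C1ra and C1s1 are both higher in Tgfbr2/Smad4 cKO, and the points of Tgfbr2 and Smad4 nearly coincide. An open point that cannot be seen lies under the black one.

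Complement and acute phase genes had the highest median of the 59 lists, 0.65, over the 18 of 37 members that reached the filter, 6 of them at least 2-fold higher (33.3%, against 1.22% of all genes) and 2 lower (11.1%, against 2.18%). With no level filter that median was 0. The genes of the proteases that start the classical pathway, C1ra (5.97, 6.11 and 7.95) and C1s1 (9.46, 9.44 and 11.33), were higher, and so was Serping1 (10.52, 10.79 and 12.06), the gene of their inhibitor. C1ra reached the level filter only through its Tgfbr2/Smad4 cKO value, so its place in the counted share follows from that value. Cfb, a factor of the alternative pathway, was at 6.86, 6.85 and 8.41, and Lbp, which binds bacterial lipopolysaccharide, at 7.65, 7.46 and 9.72. The membrane regulators parted, with Cd59a at 9.42, 9.59 and 10.45 and Cd55, which speeds the decay of the convertases, at 7.32, 7.02 and 5.33. Ptx3, a long pentraxin, was at 9.84, 9.66 and 8.73. The leukocyte genes of the first component were at or near the filter, with C1qa at 6.69 in each array and C1qb below it. Interferon response and antigen presentation genes had Ifi202b as the 1 of 36 at least 2-fold different (2.78% higher, against 1.22% of all genes). This gene too passed the filter only through its Tgfbr2/Smad4 cKO value. Of the 36, 18 were above 0, against 31.1% of all genes, and 6 below 0, against 32.2%, with a median of 0.03.

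Neighbouring genes in the genome were also compared, by gene order in RefSeq GRCm38.p6. Of 8110 neighbouring pairs in which both genes reached the filter, 14 were at least 2-fold different in the same direction and 5 in opposite directions. Other same-direction pairs from different gene families were F11r and Alyref2 (1.10 and 1.21), Rab27b and Dynap (1.17 and 1.11), Grb14 and Cobll1 (1.09 and 1.16) and Hspa4l and Plk4 (-1.17 and -1.28). Slit2, a guidance ligand gene at 11.44, 11.34 and 12.63, was paired with Mir218-1 of its own intron at 1.05. Serpinb10 and Serpinb8, of a serpin cluster, were higher by 1.62 and 1.17. In opposite directions lay Bmp4 and Cdkn3 (2.97 and -1.04), Deptor and Col14a1 (2.41 and -1.30), Bdh2 and Cenpe (1.06 and -2.05), Adam22 and Dbf4 (1.38 and -1.28), and Afap1l2 and Ablim1 (1.18 and -1.07).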

How the data were processed

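The arrays were Affymetrix Mouse Gene 1.0 ST, per the labels' protocols, with 1 for each of 3 mouse fibroblast lines. The deposited values were read as log2 signals, a unit inferred from their range of 2.82 to 15.6 over 35556 probe sets. For the software, the background correction, the between-array scaling and the build, nothing is given in the sources used here. The largest gap between array medians was 0.00413, and the values deposited by the authors were used unchanged, and 0 other columns of per-sample values were present. The platform annotation listed 23410 probe sets, 21789 of them with 1 gene symbol. Symbols were updated through gene identifiers with RefSeq GRCm38.p6 for 21698 and kept for 91, and probe sets were averaged per gene. Close gene copies may share probe signal.

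Differences are Tgfbr2/Smad4 cKO minus wild type, and a gene was counted at 2-fold or more. Members and the 59 gene lists (1837 symbols, 1728 with a value) were chosen with earlier results of these data known. Lists share genes and support nothing independently. Named genes were, in each direction, the 20 of largest difference that had 1 probe set and an established symbol, all list members past 2-fold, members of the TGF-beta and BMP lists, sex-linked genes, markers, neighbouring pairs and genes nearest each threshold. Other list members within 2-fold were named after their values were seen. Summed marker signals are log2 of the sum of linear signals. Promoters came from RefSeq.

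The alternatives were a level filter at the 75th percentile (8.85) or none, median centring, quantile or cyclic loess scaling, the brightest probe set or only genes with 1 probe set, 32 added before log2, and rules of 1.5-fold and 3-fold. Counts were called alike within 1.5 times and list medians within 0.1. The counting steps were tested on simulated data. R 4.3.3 with limma 3.58.1 did the rescaling, and Python 3.11.15 with pandas 2.3.3, numpy 2.4.6 and matplotlib 3.10.9 the rest.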

Additional observations from a re-analysis of the deposited data

Results flagged for a closer look

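Signal in probe sets without a single gene name was not used in the comparison above. Of 4426 probe sets that the platform annotation does not list and that reached the level filter, 74 were at least 2-fold higher in Tgfbr2/Smad4 cKO than in the wild-type control (1.67%) and 73 were lower (1.65%), with differences from -5.54 to 2.69. Of 832 such probe sets with several gene symbols, 5 were at least 2-fold higher (0.601%) and 26 were lower (3.12%), with differences from -2.54 to 2.35. What these probe sets measure was not tested.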

How the results depend on the processing

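No paired analysis was possible because each group has 1 array. The counts of 144 higher and 257 lower genes were between 141 and 157 higher and between 244 and 260 lower under median centring, quantile or cyclic loess normalization, no level filter, the probe set with the highest mean and genes with 1 probe set only, and were 122 and 210 with 32 added before log2. With the filter at the 75th percentile 104 were higher and 147 lower over 6080 genes in place of 11808, and the share higher was 41.4% in place of 35.9%. A rule of 1.5-fold gave 396 higher and 601 lower, and a rule of 3-fold 55 and 96. Of 400 named genes no difference turned sign; 41 were within 2-fold with 32 added, 6 after quantile normalization (Agtr1a, Atad2, Ctsh, Gata2, Mcm7, Spc25) and 1, Hmgb3, with the probe set of highest mean. Among genes within 2-fold, Sfn and Dsp went from -0.50 and -0.49 to -0.36 and -0.39 with 32 added, and Sfn to -0.12 with the probe set of highest mean. Of 59 list medians 10 moved by over 0.1 with no filter, 7 with 32 added, 1 with the highest mean and 0 under the other normalizations. Fewer lists were compared under the following settings. With the filter at the 75th percentile 22 medians moved and 34 did not, and with 1 probe set only 2 moved and 56 did not. Signals below the array median may hold little above background, and differences there may be understated. With 1 line per genotype, line, sex pattern, strain and genotype cannot be told apart.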
